A study of Saccharomyces cerevisiae with 26 samples.

Results

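The genes described here are the 37 of 6008 in the deposited yeast RNA table that encode the proteasome, together with RPN4, the transcription factor that drives them. They were taken by standard name: RPN, RPT, PRE or PUP followed by a number, and SCL1, SEM1, ECM29 and UMP1. Of the 37, 7 encode alpha and 7 encode beta subunits of the 20S core, 6 encode ATPases and 4 encode other base subunits of the 19S regulatory particle, 9 encode its lid, 3 encode assembly or associated factors, and 1 is RPN4. The study followed budding yeast of the CEN.PK background through the metabolic cycle that continuous culture sets up. RNA was sequenced from wild-type CEN.PK and from CEN.PK with the allele TAF14[W81A] at 5 time points, 2 libraries per genotype and time point, which makes 20 RNA libraries in 10 groups. The labels place time points 1 and 2 early and late in the OX (oxidative) phase, 3 and 4 early and late in RB (reductive building), and 5 in RC (reductive charging). ChIP of H3K9ac, histone H3 acetylated on lysine 9, is given for CEN.PK at time points 3 and 4, with 1 library each.

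The proteasome degrades proteins that carry ubiquitin chains. In its 20S core, rings of beta subunits hold the cutting sites and rings of alpha subunits form the gate. The 19S particle on top binds the chain, removes it and threads the substrate in, with a ring of ATPases doing the unfolding. RPN4 encodes a short-lived activator of nearly all these genes that is itself destroyed by the proteasome, so the factor and its target genes form a feedback loop. TAF14 encodes a subunit of several transcription and chromatin complexes whose YEATS domain binds acylated, including crotonylated, lysines, and the W81A substitution lies in that domain.

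The authors deposited 1 log2 level per gene, genotype and time point, and the whole reads of both libraries behind each level were recovered from its decimals. A level below is scaled reads per kilobase of gene. The recovered reads over 5440 genes came to between 2020000 and 3750000 per library. The libraries of a group correlated at r = 0.986 at time point 1 of wild type and at 0.993 to 0.995 in the other 9 groups, across genes. The recovery does not tell replicate A from B, so the libraries are called 1 and 2. Nothing states whether they came from separate cultures, so p-values measure the spread between these libraries only. In 31 of the 37 genes both libraries were resolved in all 10 groups. The other 6, RPN5, PRE1, PUP3, PRE4, PRE6 and RPN8, had a known mean only in at least 1 group, mostly time point 5 of wild type. A single-codon substitution cannot be seen in expression levels, so these values do not check the TAF14 genotype. RNA from a whole culture cannot tell fewer expressing cells from less RNA per cell.

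RPN4 (YDL020C, chromosome IV, 415113 to 416708, R64 assembly) cycled far more widely than the genes it drives. Its level in wild type was 83.7 and 76.8 at time point 1, 226.5 and 204.5 at time point 2, and 248 and 242 at time point 3. It stood at 776.5 and 779 at time point 4 and at 473 and 482 at time point 5. The libraries of neighbouring time points did not overlap, and the late RB pair was the highest. In TAF14[W81A] the levels were 82.3 and 70.4 at time point 1, 229 and 234 at time point 2, 223 and 217.5 at time point 3, 526 and 533 at time point 4 and 453 and 435 at time point 5. The order of the time points was thus led by late RB in both genotypes, with a lower late RB pair in the mutant.

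**Figure D1:**
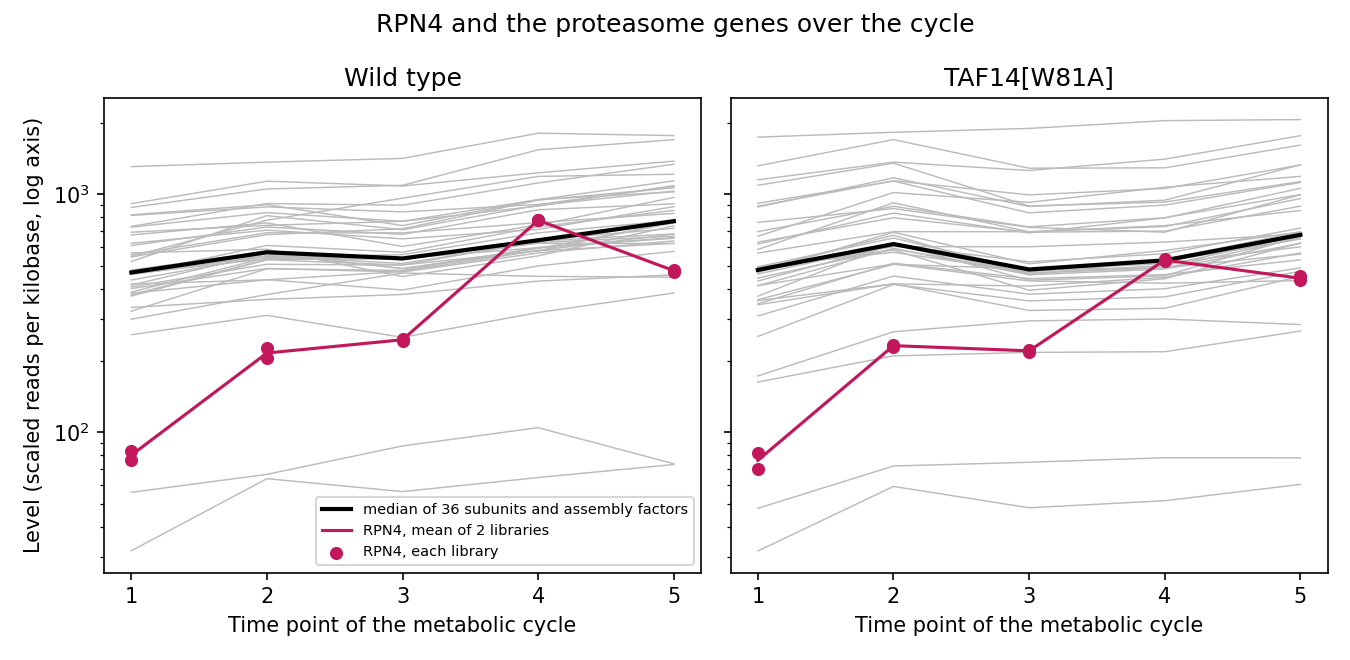
Level of RPN4 (magenta, each library as a point, line through the mean of 2), of each of the other 36 genes (grey, group means) and their median (black) at the 5 time points, in scaled reads per kilobase on a log axis. RPN4 climbs from 80.3 to 778 between time points 1 and 4 of wild type, while the black line moves from 470 to 771 between time points 1 and 5.

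Between the lowest and highest group mean RPN4 spanned 3.27 on the log2 scale in wild type and 2.79 in TAF14[W81A]. The other 36 genes spanned a median of 0.67 in wild type (range 0.40 to 1.21) and 0.59 in the mutant (range 0.25 to 0.93). The median over all genes was 1.27 in wild type and 1.09 in the mutant, so the median proteasome gene moved less than the median gene of the table, while RPN4 moved more than 87.3% and 89.1% of genes. Per kilobase, the level of RPN4 was above 2 of the 36 other genes at each of time points 1, 2 and 3 in wild type, above 24 at time point 4 and above 5 at time point 5. In the mutant it was above 2, 3 and 3 of them, then 18 and 5. The plot of levels by time point shows this crossing of RPN4 through the band of subunit genes in late RB.

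The 36 other genes differed more from each other in level than they moved over the cycle. Their median level in wild type was 470, 571, 538, 641 and 771 at time points 1 to 5, and in TAF14[W81A] it was 481, 618, 483, 528 and 676. SEM1, the smallest lid subunit, had the highest group mean in all 10 groups, between 1307 and 1415 at wild-type time points 1 to 3, at 1806 and 1764 at time points 4 and 5, and between 1738 and 2060 in the mutant. ECM29, a large factor that tethers the regulatory particle to the core, had the lowest, between 31.8 and 73.3 in wild type and between 31.8 and 60.5 in the mutant. RPN14, a chaperone of base assembly, had the next lowest mean in each group, at 56.6 and 55.4 at wild-type time point 1 and 106 and 103 at time point 4.

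Most of the proteasome genes were lowest when the wild-type cycle entered OX and highest in RC. Of the 36 besides RPN4, 32 had their lowest wild-type mean at time point 1, and 4 (PRE6, PUP1, RPT4 and UMP1) at time point 3. In 32 the highest mean was at time point 5. RPN2, SEM1 and RPN14 had it at time point 4, as RPN4 did, and RPN13 had it at time point 3. All 37 genes passed limma's F test over the 5 wild-type time points, as did 93.7% of the 5985 genes tested. In TAF14[W81A] 36 of 37 passed, SEM1 being the exception, against 91.8% of all genes. A call throughout is a Benjamini-Hochberg adjusted p under 0.05 over all genes tested.

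**Figure D2:**
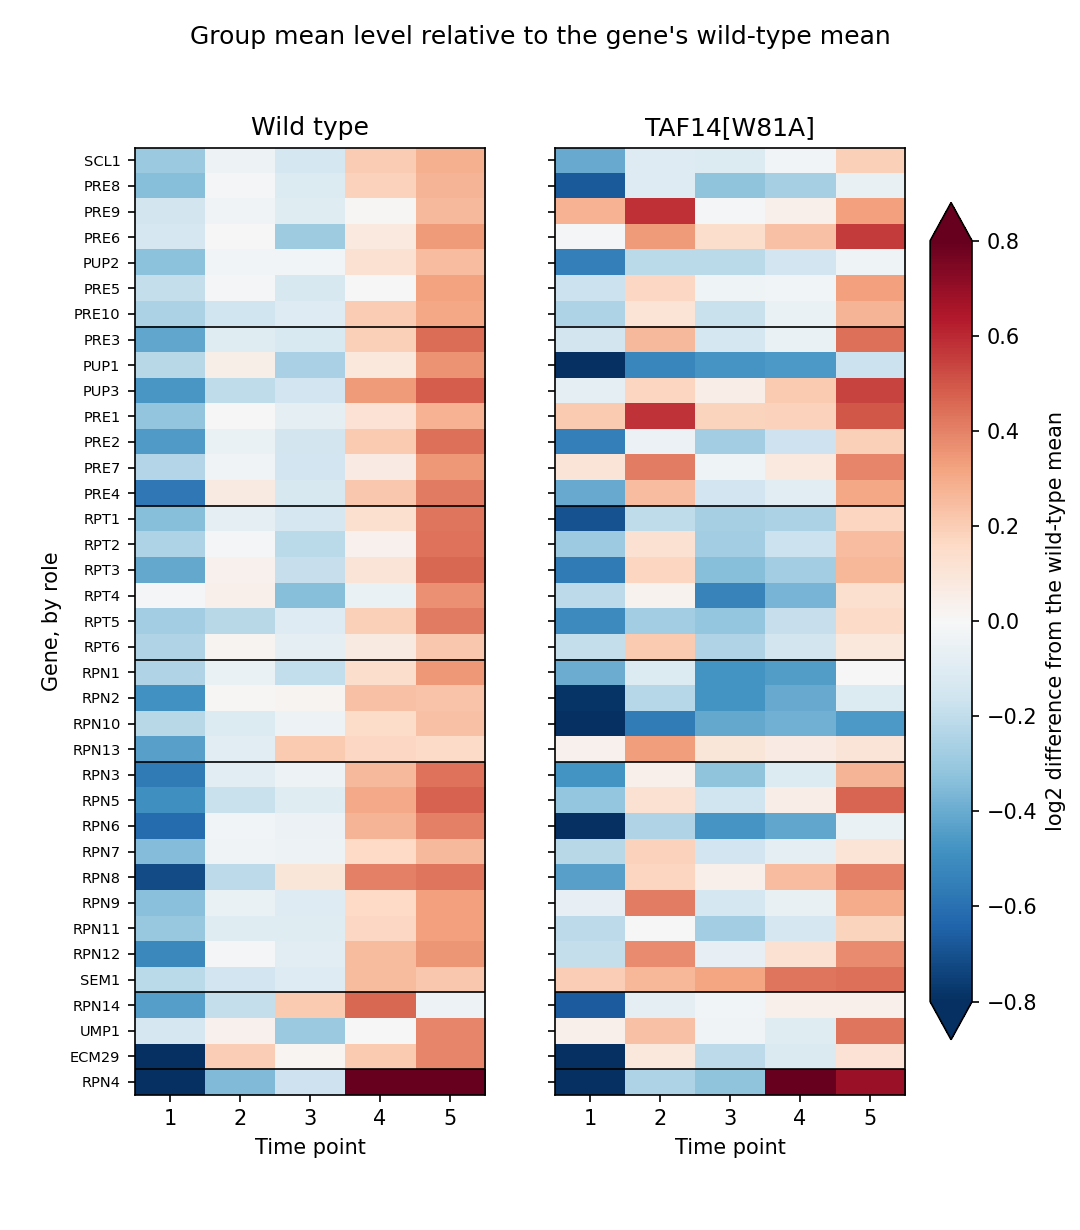
Group mean level of each gene (rows, by role, RPN4 last) at the 5 time points (columns), as the log2 difference from the gene's own mean over the wild-type time points. Colours end at -0.8 and 0.8, and values past these are drawn at the end of the scale. Among them are RPN4, with a span of 3.27 in wild type, and ECM29 at time point 1 of both genotypes. RPN10, RPN6 and PUP1 at mutant time point 1 are also past the end. Time point 1 is the coldest column in wild type for 32 of the 36 genes above RPN4.

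The climb through wild-type OX was shared by most roles. From time point 1 to 2, 30 of the 37 genes rose and 0 fell, where 34.4% of all genes tested were called higher and 40.8% lower. The median change of the 37 was 0.27 on the log2 scale, against -0.08 over all genes. All 7 beta subunit genes rose, as did 8 of 9 lid genes, 4 of 7 alpha genes, 4 of 6 ATPase genes, 3 of 4 other base genes and all 3 assembly and associated genes. RPN4 rose most, by 1.42 (SE 0.07, adjusted p = 1.85e-11). ECM29 had levels of 36.4 and 27.2 at time point 1 and 62.3 and 65.6 at time point 2, a change of 1.02 (SE 0.10, adjusted p = 5.59e-08). PRE4, a core beta subunit gene, went from 522 in both libraries to 794 and 833, a change of 0.64 (SE 0.06). RPN6, whose product clamps the lid to the core, went from 319.5 and 327 to 479 and 495, a change of 0.59 (SE 0.06), and RPN12, another lid gene, rose by 0.51 (SE 0.05). None of these pairs overlapped. PRE9, PRE6, PRE10, RPT4, RPT5, RPN10 and SEM1 did not pass the test at this step.

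Passing from OX into RB, 26 of the 37 genes did not pass the test in wild type. From time point 2 to 3, 4 rose (RPN4, RPN13, RPN8 and RPN14) and 7 fell (PRE6, PUP1, PRE4, RPT2, RPT3, RPT4 and UMP1), where 33.5% of all genes were called higher and 32.9% lower. RPT4, an ATPase gene, had levels of 574 and 601 at time point 2 and of 460.5 and 442 at time point 3, a change of -0.38 (SE 0.06, adjusted p = 3.44e-05). UMP1, the chaperone that matures the core and is then degraded by it, changed by -0.33 (SE 0.06), PUP1, the trypsin-like catalytic subunit, by -0.31 (SE 0.07), and PRE6 by -0.29 (SE 0.07). In the other direction RPN14 changed by 0.40 (SE 0.09), RPN8, the partner of the deubiquitinating subunit, by 0.31 (SE 0.09), and RPN13, a ubiquitin receptor, by 0.30 (SE 0.08). RPN8 and RPN13 lost their calls without library 1 of wild-type time point 2. RPN4 changed by 0.19 (SE 0.07, adjusted p = 0.03), a call that was lost under both other scalings of the libraries and without library 2 of time point 2 or either library of time point 3. The scalings also moved the split of the calls, to 3 higher and 16 lower with upper-quartile scaling and to 3 and 12 with scaling by the sum of reads. Both scalings were computed over the 5440 genes resolved in all 10 groups, so the sum is not the total of a library.

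In late RB of wild type RPN4 made its largest rise on the authors' scaling, and most of the other genes rose with it. From time point 3 to 4, 31 of the 37 rose and 0 fell, where 22.9% of all genes were called higher and 20.8% lower. The median change was 0.29, against 0.00 over all genes. RPN4 rose by 1.66 (SE 0.07, adjusted p = 3.28e-11), which is 3.17-fold. Under both other scalings its rise from time point 1 to 2 was the larger. Upper-quartile scaling gave 1.65 there against 1.61 from 3 to 4, and scaling by the sum of reads 1.73 against 1.51. All 9 lid genes rose, as did all 7 beta genes, 5 of 6 ATPase genes, 4 of 7 alpha genes, 3 of 4 other base genes and 2 of 3 assembly and associated genes. PUP3, a beta subunit gene, rose by 0.50 (SE 0.06), RPN5 by 0.40 (SE 0.06), PRE6 by 0.36 (SE 0.07) and SEM1 by 0.36 (SE 0.12). RPN5 moved from 716 and 717 to 938.5 and 951, without overlap. The SEM1 call was lost under scaling by the sum of reads and without library 2 of time point 3 or library 1 of time point 4. PRE9, PUP2, PRE5, RPT6, RPN13 and ECM29 did not pass the test. Scaling by the sum of reads moved the median of all genes to -0.154 and left 9 of the 37 called higher. The median of the 37 was again 0.29 above that of all genes, which is no check, as a scaling shifts all genes almost alike. In wild type 25 of the 37 rose both at this step and from time point 1 to 2, as did 11.3% of all genes.

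On entering RC, RPN4 fell in wild type while about as many of the other genes rose as did not pass the test. From time point 4 to 5 of wild type, 19 of the 37 rose and 2 fell, where 32.4% of all genes were called higher and 29.4% lower. The 2 that fell were RPN4, by 0.70 (SE 0.07, adjusted p = 2.35e-07), and RPN14, which went from 106 and 103 to 75.8 and 71.9, a change of -0.50 (SE 0.09). RPT4 had levels of 546 and 557 at time point 4 and 751 and 725 at time point 5, a change of 0.42 (SE 0.06, adjusted p = 1.48e-05). RPT2 rose by 0.40, UMP1 by 0.38, RPT3 by 0.36 and PRE5 by 0.32 (SE 0.06 each). Of the 6 ATPase genes 5 rose, of the 7 beta genes 5, of the 9 lid genes 4, of the 7 alpha genes 3 and of the 4 other base genes 1. Both other scalings called 31 higher and 2 lower.

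The return from RC to early OX lowered every gene of the set in wild type. From time point 5 to 1, 37 of 37 fell, where 38.6% of all genes were called lower and 41.2% higher. The median change was -0.61, against 0.04 over all genes. RPN4 changed by -2.57 (SE 0.07, adjusted p = 1.56e-14), to 0.17 of its level. ECM29 changed by -1.21 (SE 0.10), RPN8 by -1.15 (SE 0.09), RPN6 by -1.02 (SE 0.06) and RPN3, another lid gene, by -0.998 (SE 0.06). RPN6 went from 669 and 639 to 319.5 and 327. The smallest drop was that of RPT4, at -0.38. The lid and beta genes had median changes of -0.86 and -0.87, the ATPase genes -0.69, the other base genes -0.58 and the alpha genes -0.56.

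In TAF14[W81A] nearly all of the genes rose through OX, and most, but not RPN4, fell on entering RB. From time point 1 to 2, 36 of the 37 rose and 0 fell, SEM1 alone missing the call, where 34.9% of all genes were called higher and 38% lower. RPN4 rose by 1.60 (SE 0.07), ECM29 by 0.90 (SE 0.10), RPT3 by 0.74 (SE 0.06), RPN6 by 0.73 (SE 0.06) and PRE4 by 0.65 (SE 0.06). From time point 2 to 3, 26 fell and 0 rose, where 30.3% of all genes were called lower and 29.6% higher. PRE9, an alpha subunit gene, went from 1376 and 1325 to 911 and 875, a change of -0.60 (SE 0.07, adjusted p = 1.08e-06). RPT4 changed by -0.56, RPN9, a lid gene, by -0.55, RPT3 by -0.51 (SE 0.06 each) and RPT6 by -0.45 (SE 0.06). RPN4 did not pass the test at this step (-0.07, SE 0.07, adjusted p = 0.399), nor did SCL1, PUP2, PUP1, PUP3, RPT1, RPT5, RPN10, RPN8, SEM1 and RPN14.

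Late RB raised RPN4 in the mutant too, while the share of the set called higher was close to that of all genes. From time point 3 to 4, 4 of the 37 (10.8%) rose and 0 fell, where 12.1% of all genes were called higher and 11.8% lower. RPN4 rose by 1.26 (SE 0.07, adjusted p = 6.68e-09). The other 3 were the lid genes RPN3 (0.21), RPN5 (0.21) and RPN12 (0.19). All 3 lid calls were lost under scaling by the sum of reads or without library 1 of mutant time point 3, each of which left RPN4 alone called. The lid calls also fell to 1 without library 2 of mutant time point 3 or without either library of mutant time point 4. RPN12 had levels of 502 and 520 at time point 3 and 584 and 577.5 at time point 4. The median change of the 37 was 0.09, against -0.005 over all genes.

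From time point 4 to 5 of the mutant, 29 of the 37 rose and 1 fell, where 24.5% of all genes were called higher and 21% lower. RPT3 went from 461 and 449 to 681.5 and 649, a change of 0.55 (SE 0.06, adjusted p = 9.05e-07). UMP1 rose by 0.52 (SE 0.06), RPT4 by 0.50 (SE 0.06), PRE3, the caspase-like catalytic subunit, by 0.49 (SE 0.07) and RPN1, a scaffold of the base, by 0.44 (SE 0.07). The gene that fell was RPN4, by 0.25 (SE 0.07, adjusted p = 0.00792), and it lost that call under scaling by the sum of reads or without library 2 of mutant time point 5. From time point 5 to 1, 34 of the 37 fell and 0 rose, where 38.7% of all genes were called lower and 40.5% higher. PRE9, RPN13 and SEM1 did not pass. RPN4 changed by -2.53 (SE 0.07), ECM29 by -0.93 (SE 0.10), RPN6 by -0.91 (SE 0.06), RPT1 by -0.87 (SE 0.06) and RPN8 by -0.84 (SE 0.09). In the mutant 29 of the 37 rose both from time point 1 to 2 and from 4 to 5, as did 3.12% of all genes.

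**Figure D3:**
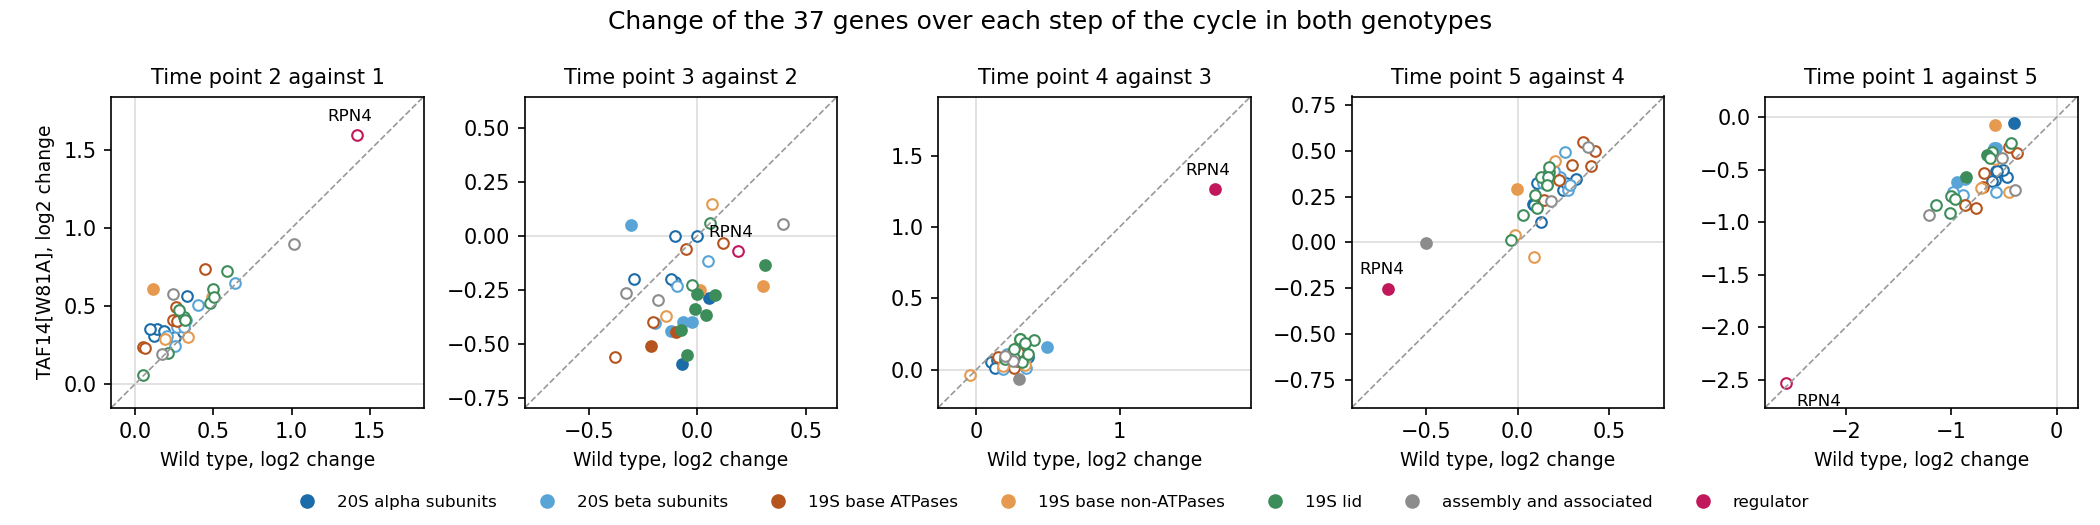
Log2 change of each of the 37 genes over each step of the cycle, wild type on the x axis and TAF14[W81A] on the y axis, coloured by role. Filled points passed the test of the difference between the genotypes' steps and the dashed line marks equal change. The step from time point 2 to 3 holds the most filled points, 17 of 37, 16 of them below the line.

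Whether the steps themselves differed between genotypes was tested directly. The genotype by time interaction passed limma's F test in 27 of the 37 genes, against 48.4% of all genes. The 10 that did not pass were SCL1, PRE6, PUP2, PRE5, PRE2, RPT1, RPT4, RPT5, SEM1 and ECM29. The step into RB differed most often. From time point 2 to 3 the mutant change was lower than the wild-type change in 16 genes and higher in 1, where 10.1% of all genes were called lower and 18.1% higher. Of the 9 lid genes 7 were among the 16. RPN13 led with -0.54 (SE 0.12, adjusted p = 0.00269), followed by PRE9 at -0.53 (SE 0.09), RPN9 at -0.50 (SE 0.08), RPN8 at -0.45 (SE 0.12) and RPN3 at -0.41 (SE 0.08). RPN13 had wild-type levels of 351 and 407 at time point 2 and 475 and 459 at time point 3, and mutant levels of 488 and 531 and then 427 and 438.5. It therefore passed the test upward in wild type and downward in the mutant at the same step. PUP1 was the 1 gene whose mutant change was higher, by 0.35 (SE 0.10). The PUP1 and RPN8 calls were lost without library 1 of wild-type time point 2, and without library 2 of mutant time point 3 for PUP1 or of mutant time point 2 for RPN8. RPN4 did not pass (-0.26, SE 0.10, adjusted p = 0.0669), but it passed without library 1 of wild-type time point 2 or without any 1 library of time point 1.

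At the other steps few differences between genotypes passed. From time point 3 to 4 the mutant change was lower in 3 genes, RPN4 (-0.40, SE 0.10, adjusted p = 0.0308), UMP1 (-0.37, SE 0.09) and PUP3 (-0.34, SE 0.09), and higher in 0, where 2.99% of all genes were called lower and 2.06% higher. None of the 3 calls was kept under scaling by the sum of reads or without the trend in limma. The count fell to 0 or 1 on leaving out any 1 library of time points 3 and 4 in either genotype. It rose to 5 without library 1 of wild-type time point 1. PUP3 was unresolved at wild-type time point 3 and mutant time point 4, so it was not tested without a library of those groups. From time point 4 to 5 the mutant change was higher in 3 genes and lower in 0, where 8.29% of all genes were called higher and 14.4% lower. They were RPN14 (0.50, SE 0.13), RPN4 (0.45, SE 0.10, adjusted p = 0.00396) and RPN2 (0.29, SE 0.09), and RPN4 alone was left without library 2 of mutant time point 5. The RPN2 call was also lost under scaling by the sum of reads and without library 2 of wild-type time point 5 or library 1 of mutant time point 4. The RPN4 call at this step held in all 26 alternatives, where its difference lay between 0.35 and 0.48.

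From time point 1 to 2 the mutant change was higher in 1 gene, RPN10, by 0.50 (SE 0.10, adjusted p = 0.00748), and lower in 0, where 1.87% of all genes were called higher and 3.11% lower. The count was 2 without library 1 or 2 of wild-type time point 1 or library 1 of mutant time point 1. From time point 5 to 1 the mutant change was higher in 6 genes and lower in 0, where 5.81% of all genes were called higher and 8.05% lower. They were RPN13 (0.51, SE 0.12), PRE9 (0.35, SE 0.09), PUP3 (0.33, SE 0.09), RPN9 (0.30, SE 0.08), RPN12 (0.30, SE 0.08) and PRE7. RPN4 did not pass (0.03, SE 0.10). This count was 12 without library 1 of wild-type time point 1 and 1 without library 2 of wild-type time point 5. It was 2 without library 1 of mutant time point 5 and 3 without library 2 of mutant time point 5 or library 1 of mutant time point 1. PUP3 was unresolved at wild-type time point 5, so it was not tested without a library of that group.

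Set against wild type at the same time point, TAF14[W81A] had calls in both directions. By limma there were more higher than lower calls in OX and more lower than higher calls from RB on. At time point 1, 13 of the 37 genes were higher and 10 lower, where 23.9% of all genes were called higher and 25.3% lower. The authors' deposited table called 1 higher and 2 lower there. Paired libraries also spread most at this time point. The median SD (log2) over the genes besides RPN4 was 0.050 for wild type and 0.071 for TAF14[W81A]. The other groups had 0.022 to 0.045. The fit shared 1 variance per gene among groups, so p-values here may be too small. How many calls rest on this was not tested. At time point 2, 18 were higher and 5 lower, where 23.9% were called in each direction. At time point 3, 5 were higher and 12 lower, where 25.9% were called higher and 18.1% lower. At time point 4, 0 were higher and 26 lower, where 25.9% were called higher and 21.9% lower. At time point 5, 2 were higher (PRE1 and PRE6) and 15 lower, where 15.3% were called in each direction. Scaling by the sum of reads moved the split to 14 and 7 at time point 1 and to 5 and 9 at time point 3, and upper-quartile scaling gave 6 and 9 at time point 3. The medians of the 37 were 0.01, 0.14, -0.12, -0.25 and -0.11 at the 5 time points, while those of all genes lay between 0.00 and 0.02.

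**Figure D4:**
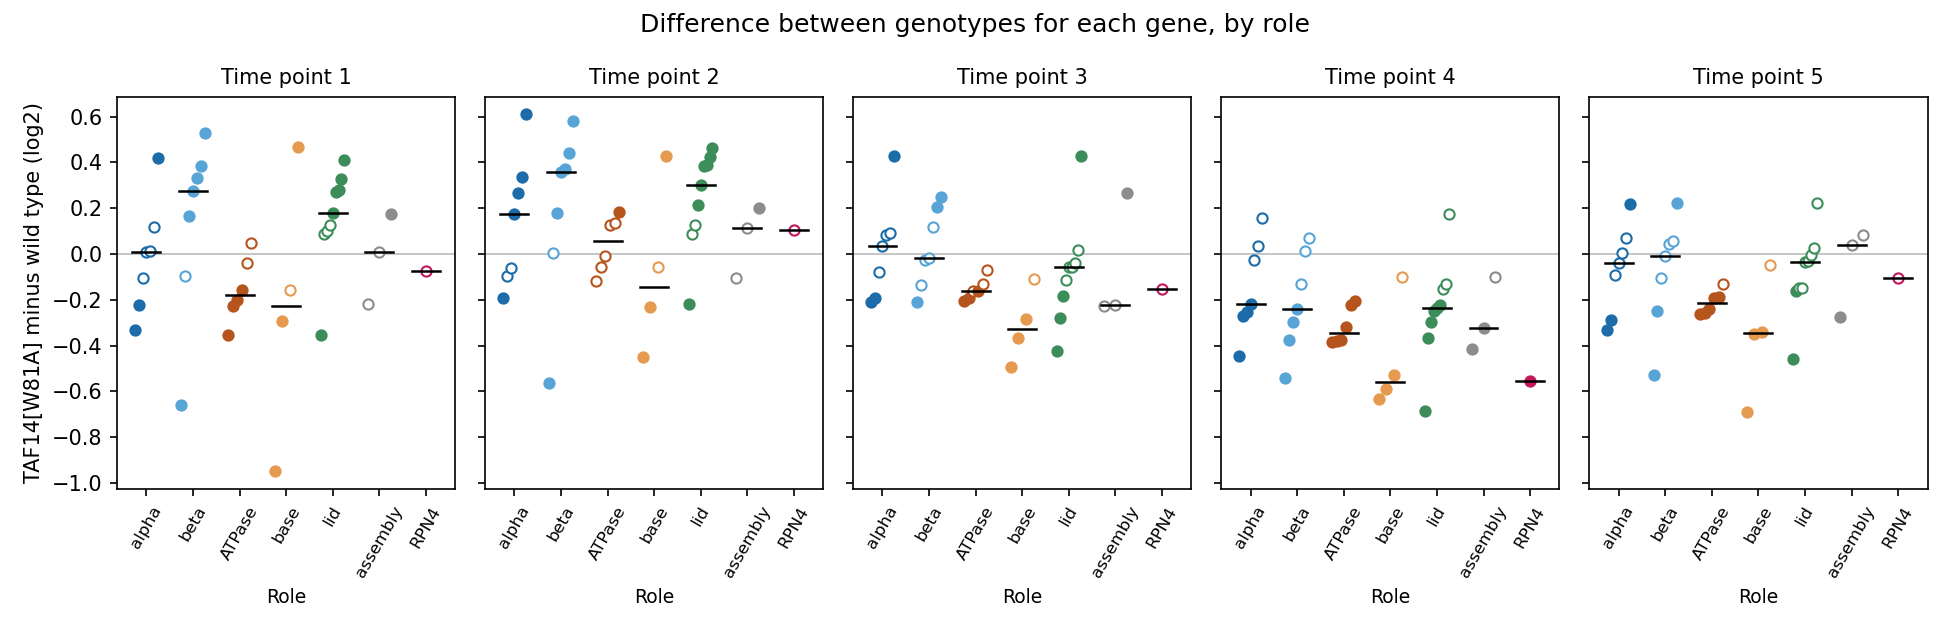
Log2 difference between TAF14[W81A] and wild type for each of the 37 genes at each time point, by role, with black bars at the median of each role. Filled points passed the test. At time point 4 all filled points lie below 0, with the 4 base genes other than ATPases at a median of -0.56.

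The 26 lower genes of time point 4 came from each role. They were all 6 ATPase genes, 3 of 4 other base genes, 6 of 9 lid genes, 4 of 7 alpha and 4 of 7 beta genes, 2 of 3 assembly and associated genes, and RPN4. RPN6 had levels of 611 and 584.5 in wild type and 364 and 378 in the mutant, a difference of -0.69 (SE 0.06, adjusted p = 7.55e-08). RPN2, a scaffold of the base, had 619 and 626 against 400 and 402, a difference of -0.63 (SE 0.06, adjusted p = 4.39e-07). RPN1, the other scaffold, had 496 and 504 against 332 and 333, a difference of -0.59 (SE 0.07, adjusted p = 3.17e-06). RPN4 had a difference of -0.55 (SE 0.07, adjusted p = 7.85e-06), or 0.68 of the wild-type level, and its libraries did not overlap. PUP1 had 305.5 and 332 against 218 and 219, a difference of -0.54 (SE 0.07, adjusted p = 5.59e-06). PRE9, PRE6, PRE5, PUP3, PRE1, PRE7, RPN13, RPN8, RPN12, SEM1 and UMP1 did not pass. Scaling by the sum of reads, under which the median of all genes here was 0.143, gave 4 higher and 15 lower, and upper-quartile scaling gave 1 and 20. The median of the 37 was 0.27 below that of all genes under each scaling. A scaling shifts all genes of a contrast almost alike, so this distance could hardly change and is no check of the calls.

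For RPN4, late RB was the 1 time point at which the genotypes differed by the test. Its differences at time points 1, 2, 3 and 5 were -0.07, 0.10, -0.15 and -0.11 (SE 0.07 each), with adjusted p of 0.406, 0.242, 0.0921 and 0.283. At time point 1 the libraries of the genotypes overlapped, and at time points 2, 3 and 5 they did not. The late RB call held in all 26 alternatives, with a difference between -0.56 and -0.42.

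A set of 5 genes was called lower in the mutant at every time point by limma: PUP1, RPN10, RPN6, RPN2 and PUP2. Of all genes 4.75% were lower at all 5 time points and 4.24% higher, and of the 37 genes 0 were higher at all 5. RPN10 (YHR200W, chromosome VIII, 499079 to 499885), which encodes a ubiquitin receptor, had mutant levels of 176 and 169 against wild-type 318 and 352 at time point 1, a difference of -0.95 (SE 0.07, adjusted p = 4.92e-08). At time point 2 it had 258 and 272 against 366.5 and 357.5, at time point 3 it had 312 and 276.5 against 370 and 389, at time point 4 it had 300 and 299 against 432 in both, and at time point 5 it had 291 and 276 against 463 and 455. The libraries did not overlap at any time point. PUP1 (YOR157C, chromosome XV, 630966 to 631751) had a mean difference of -0.50 over the 5 time points and mutant levels between 155 and 271, against 246 to 387 in wild type. It was nearest to wild type at time point 3, with 209 and 224 against 246 and 255. RPN6 (YDL097C, chromosome IV, 285391 to 286695) differed by -0.35, -0.22, -0.42, -0.69 and -0.46 over the 5 time points. RPN2 differed by -0.29, -0.23, -0.50, -0.63 and -0.34, and PUP2, an alpha subunit gene, by -0.22, -0.19, -0.19, -0.27 and -0.29. The time point 2 calls of RPN6, RPN2 and PUP2 were each lost without library 2 of wild type at that time point. Those of PUP2 and RPN2 were also lost without library 1 and library 2 of the mutant respectively. By the authors' deposited adjusted p-values RPN10 alone passed at all 5 time points. PUP1 did not pass there at time point 3 (0.138), nor did RPN6 (0.146) and RPN2 (0.203) at time point 1. PUP2 did not pass at time points 1, 2 and 3 (0.395, 0.0542 and 0.06).

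Other genes of the same particle were higher in the mutant, chiefly in OX. PRE1, a beta subunit gene, had mutant levels of 1286 and 1349 against 960 and 867 at time point 1, a difference of 0.53 (SE 0.07), and 1671 and 1723 against 1154 and 1116 at time point 2, a difference of 0.58 (SE 0.07). It stayed higher at time point 3 (0.25), a call lost without library 2 of wild type, and at time point 5 (0.22). The time point 5 calls of PRE1 and PRE6 (0.22 each) were lost without either mutant library. PRE9 had 1042 and 1140 against 769 and 862 at time point 1 (0.42, SE 0.07) and 1376 and 1325 against 915 and 855 at time point 2 (0.61, SE 0.07), and 0.08, 0.03 and 0.07 at the later time points, none of which passed. RPN13 followed the same course, with 0.47 and 0.43 (SE 0.08 each) in OX and -0.11, -0.10 and -0.05 afterwards. RPN9 and PRE7, a beta subunit gene, differed by 0.46 and 0.44 at time point 2, and PUP3 by 0.38 at time point 1. SEM1 differed by 0.41, 0.42 and 0.43 (SE 0.12 each) at time points 1, 2 and 3, PRE6 by 0.43 at time point 3 and UMP1 by 0.27 at time point 3. The SEM1 and UMP1 calls at time point 3 were lost without library 2 of wild type, and the UMP1 and PUP3 calls (0.21 for PUP3) without library 1 of the mutant.

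Over the 5 time points, 11 of the 37 genes had only higher calls, 19 only lower calls, 7 both and 0 had none. Of all genes 37.6% had only higher calls, 32.5% only lower calls, 11.8% both and 18% none. Genes for subunits of the same particle thus differed from wild type in both directions. Counts at time points 3 and 5 depended on single libraries. The 17 calls of time point 3 became 10 without library 1 of either genotype and 11 without library 2 of wild type. The 17 of time point 5 became 8 and 10 without wild-type library 1 and 2, and 11 and 9 without mutant library 1 and 2. RPN5, PRE1, PUP3, PRE4, PRE6 and RPN8 were unresolved at wild-type time point 5, so without a library of that group they were not tested. The same held for PUP3 at wild-type time point 3. The difference between genotypes ran with gene length. Across the 37 genes it correlated with log2 length at r = -0.34, -0.39, -0.66, -0.60 and -0.45 at time points 1 to 5, and across all 5985 genes at -0.23, -0.32, -0.19, -0.10 and -0.17, as a description across genes that share the same libraries. The part of gene length in the differences was not tested. With all genes split by length into 4 classes of equal size, the median difference at time point 1 was 0.23 in the shortest class and -0.09 in the longest, and at time point 4 it was 0.14 and -0.07. The 5 shortest genes of the set, SEM1, UMP1, RPN13, PRE1 and PUP3, had only higher calls, and the 5 longest, ECM29, RPN1, RPN2, RPN4 and RPN3, only lower calls.

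The authors' deposited table, which compares the genotypes at each time point with its own adjusted p-values, called 27 of the 37 genes lower and 0 higher at time point 4, where it called 19.6% of all genes lower and 18.8% higher. At time point 1 the authors' deposited table called 1 of the 37 higher and 2 lower, against 4.97% and 9.23% of all genes. At time point 2 the authors' deposited table called 13 higher and 4 lower, against 18.9% and 19.7%. At time point 3 the authors' deposited table called 2 higher and 6 lower, against 18.4% and 15.1%, and at time point 5 it called 3 higher and 17 lower, against 12% and 15.4%.

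Genes that act with the proteasome were read from 4 further lists, each beside the share of all genes called higher and lower. Of 11 other assembly factors and activators, 5 rose and 4 fell from time point 1 to 2 of wild type (34.4% and 40.8% of all genes). NAS6, a chaperone of base assembly, rose by 1.197 (SE 0.08), while STS1, which takes proteasomes to the nucleus, changed by -1.44 (SE 0.06) and CIC1, which also acts in ribosome assembly, by -3.27 (SE 0.14). From time point 3 to 4 of wild type 3 rose and 1 fell (22.9% and 20.8% of all genes), led by BLM10, an alternative cap of the core, at 0.69 (SE 0.09), and including POC4, a chaperone of the alpha ring, at -0.41 (SE 0.12). At time point 4 the mutant had 3 of the 11 higher and 3 lower than wild type (25.9% and 21.9% of all genes), with CIC1 at 1.29 (SE 0.14), POC4 at 0.58 (SE 0.12) and FUB1 at -0.39 (SE 0.09). At time point 2 it had 6 higher and 0 lower (23.9% of all genes each way), led by NAS2, another base chaperone, at 0.76 (SE 0.10).

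Of 10 ubiquitin chain receptors, shuttles and CDC48 factors, 6 rose and 3 fell from time point 1 to 2 of wild type (34.4% and 40.8% of all genes), 5 rose and 0 fell from 3 to 4 (22.9% and 20.8%), and 8 fell and 1 rose from 5 to 1 (38.6% and 41.2%). DDI1, a shuttle, changed by 0.74 (SE 0.10) at the first of these steps and by -1.48 (SE 0.10) at the last, and CDC48, the segregase that pulls ubiquitinated proteins out of complexes, changed by 0.43 (SE 0.07) at the middle step. In the mutant this list was lower in 6, 6, 6, 7 and 6 of its 10 genes at time points 1 to 5, where 25.3%, 23.9%, 18.1%, 21.9% and 15.3% of all genes were called lower. It was higher in 2, 2, 1, 1 and 0, where 23.9%, 23.9%, 25.9%, 25.9% and 15.3% were called higher. CDC48 was lower by the largest amount at time point 4 (-0.77, SE 0.07), and DSK2, a shuttle, at time points 1 (-0.96, SE 0.11), 2 (-0.57, SE 0.11) and 5 (-0.63, SE 0.11).

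Of 17 genes for ubiquitin and its enzymes and proteases, 8 rose and 5 fell from time point 1 to 2 of wild type (34.4% and 40.8% of all genes), 7 rose and 0 fell from 3 to 4 (22.9% and 20.8%), and 10 fell and 2 rose from 5 to 1 (38.6% and 41.2%). UBA1, which activates ubiquitin, changed by -1.16 (SE 0.08) at the last of these. At time point 4 the mutant had 6 of the 17 lower and 3 higher (21.9% and 25.9% of all genes), with UBI4, the stress polyubiquitin gene, at -0.76 (SE 0.10), UBA1 at -0.50 (SE 0.08) and RAD6, a conjugating enzyme, at 0.49 (SE 0.09). UBI4 shares its repeats with other ubiquitin genes, so its reads are uncertain.

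Of 6 genes that control RPN4, none of which is a proteasome subunit, 1 rose and 3 fell from time point 3 to 4 of wild type (22.9% and 20.8% of all genes). YAP1, an activator of RPN4 in oxidative stress, rose by 0.33 (SE 0.08), while UBR2, the ubiquitin ligase that marks Rpn4 protein for degradation, changed by -0.39 (SE 0.11) and PDR3 by -0.31 (SE 0.11). From time point 4 to 5 of wild type 3 rose and 0 fell (32.4% and 29.4% of all genes), led by MUB1, the partner of UBR2, at 0.67 (SE 0.07). HSF1, the heat shock factor, was lower in the mutant at all 5 time points, with differences of -0.53, -0.45, -0.46, -0.58 and -0.39 (SE 0.09 each), and YAP1 was lower at time point 4 (-0.39, SE 0.08).

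Among 4976 named genes outside the set, those whose 10 group means most resembled RPN4 were HSP42 (Pearson r = 0.988), MAL11, HSP104, BTN2, OPI10, SSE2, GRE3 and MAL32 (0.969). HSP42, HSP104, BTN2 and SSE2 encode chaperones that act on aggregated or unfolded proteins, and GRE3 encodes a stress-induced reductase. MAL11 and MAL32 have near-identical copies, so their reads are uncertain. The mean of the other 36 genes was most like HSC82 (r = 0.968), SIS1, UBP6, PPH22, YAP1, THP3, IRC20 and AHA1 (0.922). HSC82 encodes Hsp90, AHA1 its activator, SIS1 an Hsp40 and UBP6 a deubiquitinase bound to the proteasome base, and HSC82 and PPH22 have close paralogs with which reads could be shared. Within the set, r with RPN4 ran from 0.094 (PRE9) to 0.927 (RPN8), with a median of 0.731. These are correlations over 10 group means, in which every gene shares the same libraries and cycle.

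The median H3K9ac signal at the starts of these genes was above that of all genes. Over position bins 6 to 15, which straddle the start, the median signal of the 37 genes was 1.29 at time point 3 and 1.18 at time point 4, against 0.912 and 0.831 over 6008 genes. From time point 3 to 4 the signal was higher in 17 genes and lower in 20, and 33.8% of all genes were higher. RPN4 went from 1.41 to 1.52, a difference of 0.11 that was larger than in 87.6% of genes. Its gain was largest upstream, from 1.366 to 1.876 at bin 1, outside this window, and from 1.641 to 1.956 at bin 6. At bin 10, just before the start, it went from 1.514 to 1.521. Its signal rose in bins 11 to 13 and fell in bins 14 and 15, from 1.164 to 1.075 and from 1.068 to 0.983. The largest gain was at PUP1, from 1.00 to 1.34, and the largest losses at RPN14, from 1.29 to 0.908, and PUP3, from 1.25 to 0.918. RPN14 and PUP3 were nevertheless among the genes whose RNA rose from time point 3 to 4. ECM29 had the lowest signal, 0.559 at time point 3. With 1 library per time point there is no replicate check, and the deposited scale and bin widths are not stated. Over bins 1 to 20, 13 of the 37 were higher and 24 lower, and 33.1% of all genes were higher.

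**Figure D5:**
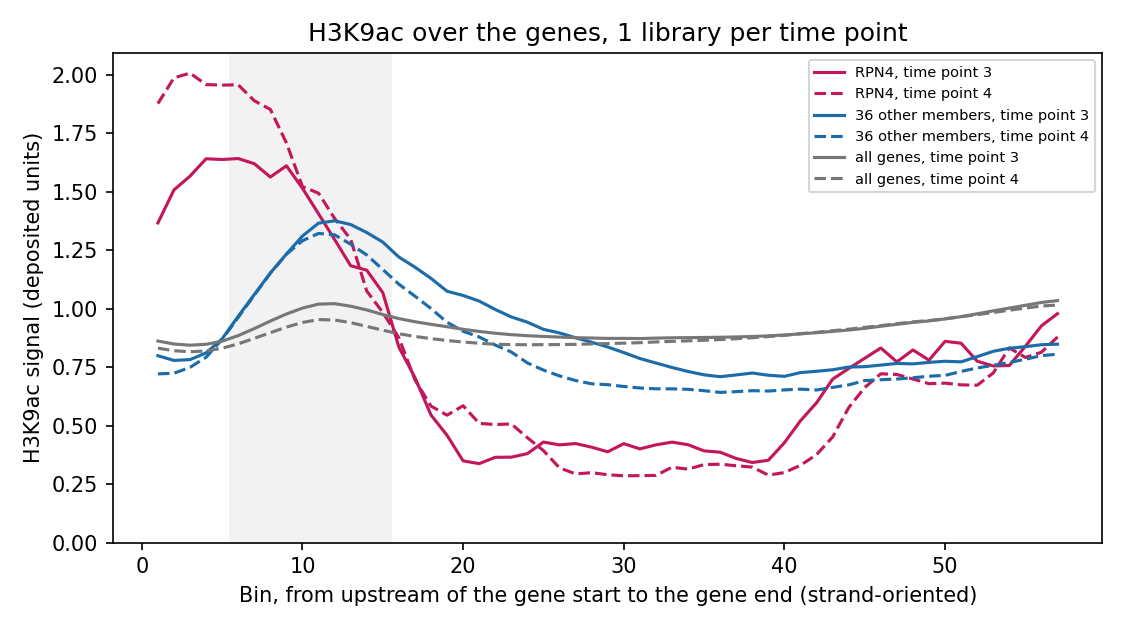
Deposited H3K9ac signal by position bin (x axis, oriented with the gene) for RPN4, the mean of the other 36 genes and the mean of all genes, at time points 3 (solid) and 4 (dashed), with bins 6 to 15 shaded. The median gene of the set stands above all genes around the start, 1.29 against 0.912 at time point 3, and the RPN4 lines lie furthest apart in bins 1 to 8, with time point 4 above.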

How the data were processed

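RNA was measured in 20 libraries, 10 groups of 2. The authors deposited a log2 level per gene, genotype and time point, and log2 fold changes and adjusted p-values of mutant against wild type, per the file headers. BWA, DESeq2, MACS2 and deepTools, and build sacCer3, stand in the submitters' processing notes. Their roles and versions, and whether counting used strand, are not given in the sources used here. The authors' deposited H3K9ac signal is a value per gene and bin at time points 3 and 4; its scale and any division by H3 are not stated. Bin 58 of time point 4 held 285215 rows, so bins from 58 on were not used.

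A deposited level, made linear and multiplied by gene length, could be written as whole-number reads from both libraries weighted by 1 step size per library, to within 1.15 roundings of the last decimal. This held at the RefSeq R64 length for 5438 of 6008 genes and at a searched length for 563, PRE3 among them. The range of reads per library limits the precision. The 5985 genes tested were those with a single whole-read solution in at least 1 group. Reads on the authors' scaling were fitted as log2(reads + 1) with limma 3.58.1 (trend) in R 4.3.3, in 1 fit of 10 group means, with no filter, up to 10 residual and 6.13 prior degrees of freedom. A group with several solutions entered as its mean. The fit held 1 variance per gene for all groups, but the spread between libraries was unequal. Over all genes its median SD (log2) was 0.124 for wild-type and 0.093 for mutant time point 1, and 0.051 to 0.072 elsewhere. Contrasts with time point 1, the steps from 1 to 2 and from 5 to 1 included, may thus have too small an SE. The others may have too large an SE. Tests were two-sided, adjusted by Benjamini-Hochberg over all genes of a contrast, and the code was tested on simulated data. Scaled reads, not levels per kilobase, were compared, which is the same within a gene.

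The members and lists were chosen with earlier results of these data known. The text names RPN4 in each comparison, with up to 5 called members in each direction by size of change, those against the majority and up to 3 called genes of each pathway list. Members just past these limits are named where a call or its loss is listed. ADC17 was not found by name in the assembly list. The 2 other scalings, by the upper quartile and by the sum of reads, used only the 5440 genes resolved in all 10 groups. Alternatives were 2 other scalings, a pseudocount of 8, a minimum mean of 10 scaled reads, limma without trend, single-solution genes alone, each library left out in turn, the F tests without time point 1, the authors' p-values, and a wider H3K9ac window. H3K9cr and H3 libraries were not analysed here.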

Additional observations from a re-analysis of the deposited data

Results flagged for a closer look

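These results were picked out because the change over a step of the cycle differed between TAF14[W81A] and wild type by limma's test of that difference, and values are log2, mutant step minus wild-type step. The genotype by time interaction passed in 27 of the 37 genes.

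From time point 1 to 2 the difference passed for RPN10 (0.50). From time point 2 to 3 it passed upward for PUP1 (0.35) and downward for the core genes PRE9 (-0.53), PRE10 (-0.34), PRE3 (-0.38), PRE1 (-0.33) and PRE7 (-0.32). It passed downward there for the base genes RPT3 (-0.30), RPT6 (-0.35), RPN2 (-0.26) and RPN13 (-0.54). In the lid it passed downward for RPN3 (-0.41), RPN5 (-0.36), RPN7 (-0.33), RPN8 (-0.45), RPN9 (-0.50), RPN11 (-0.27) and RPN12 (-0.36).

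From time point 3 to 4 it passed for RPN4 (-0.40), PUP3 (-0.34) and UMP1 (-0.37). From time point 4 to 5 it passed for RPN4 (0.45), RPN14 (0.50) and RPN2 (0.29). From time point 5 to 1 it passed for PRE9 (0.35), PUP3 (0.33), PRE7 (0.29), RPN13 (0.51), RPN9 (0.30) and RPN12 (0.30). Groups of 2 libraries are too small to look for an outlying library.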

How the results depend on the processing

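No paired analysis was possible because the deposited columns carry no replicate letters, so the replicate block was not run, and the promoter motif search was not run. Of 3125 recomputed values of 124 named gene results, 3026 kept their direction and side of the threshold, 94 lost a call, 5 gained one and 0 changed direction.

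Counts of genes called, both directions together, moved by over 1.5 times as follows. Upper-quartile scaling gave 19 for wild-type time point 3 against 2, 33 for wild-type 5 against 4 and 1 for the difference between genotypes in the step from 3 to 4. Scaling by the sum of recovered reads gave 9 for wild-type 4 against 3, 33 for wild-type 5 against 4, 1 for mutant 4 against 3 and 0 for the difference in that step. The authors' deposited table gave 3 for mutant against wild type at time point 1 and 8 at time point 3. Restricting to genes resolved in all 10 groups gave 2 for the difference in the step from 1 to 2, and limma without trend gave 0 for that from 3 to 4. The cause was not tested. Scaling by the sum moved the median of all genes to 0.226, -0.034, -0.154, 0.177 and -0.212 over the wild-type steps. The median of the 37 relative to it moved by less than 0.01 in each. This is no check, because a scaling shifts all genes of a contrast almost alike. Among calls over all genes, scaling by the sum moved the share that were higher from 45.8% to 62.8% (2 against 1), 52.4% to 28.1% (4 against 3), 52.5% to 67.9% (5 against 4) and 51.7% to 40.8% (1 against 5) in wild type, and from 54.3% to 73.1% for mutant against wild type at time point 4.

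Leaving out 1 library, the counts of the wild-type steps in order (2 against 1 first) ran from 25 to 30, 8 to 12, 25 to 33, 14 to 24 and 31 to 37, and of the mutant steps from 30 to 36, 21 to 27, 1 to 4, 25 to 31 and 28 to 35. Mutant against wild type ran from 18 to 23, 17 to 23, 10 to 19, 21 to 26 and 8 to 18 at the 5 time points. The differences between steps ran from 1 to 2, 13 to 18, 0 to 5, 1 to 4 and 1 to 12. The F tests ran from 31 to 37 in wild type, 30 to 36 in the mutant and 21 to 30 for the interaction. Leaving out a library removes genes unresolved in that group. At wild-type time point 5 these were RPN5, PRE1, PUP3, PRE4, PRE6 and RPN8, which left 31 of the 37 tested. The lows of 31, for wild-type 1 against 5 and the wild-type F test, came without library 1 of that group and held no lost call. All 37 were resolved at mutant time point 2, so the low of 21 for mutant 3 against 2 came from lost calls alone. The 2020000 to 3750000 reads per library are sums over the 5440 genes resolved in all 10 groups, not whole library depths. Depth limits the genes with few reads. RPN14 had the fewest of the set, 136 to 429 per library. ECM29 was lowest per kilobase but, being long, had 367 to 1496.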
